A study of Rattus norvegicus with 5 samples.

Results

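The acute METH challenge was followed through H4K5Ac ChIP-Seq by setting the 2 libraries of METH-challenged rats, SM and MM, against the 2 libraries of saline-challenged rats, SS and MS. Pretreatment paired them, so that SM was compared with SS (saline-pretreated) and MM with MS (METH-pretreated). These are 4 of the 5 libraries of the series, and the other one is input DNA made without antibody. All rats were male Sprague-Dawley animals of 330 to 370 g, and the tissue was striatum. SS rats received saline over 2 weeks and then saline (4 animals pooled). SM rats received saline and then 5 mg/kg of METH (3 animals). MS rats received METH over 2 weeks and then saline (3 animals), and MM rats received METH and then 5 mg/kg of METH (4 animals). The challenge came 16 to 18 h after the last pretreatment injection, and the animals were killed 2 h later. Each group was 1 pooled library, and the input, labelled untreated, pooled 4 samples and served all groups, so no group had a replicate.

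H4K5Ac is histone H4 acetylated at lysine 5. Acetyl groups are put on histone tails by histone acetyltransferases and removed by histone deacetylases. Acetylation weakens the hold of the tail on DNA and offers a docking site for proteins that carry bromodomains, and it is found mainly where chromatin is open and genes are transcribed. METH releases dopamine, and dopamine receptor signaling in the medium spiny neurons of the striatum switches on immediate early genes within hours. The comparison therefore asks whether the challenge moved H4K5Ac tags in the same stretches of the genome in METH-naïve and in METH-pretreated rats.

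The deposited values are tag counts, and the libraries held 5860479 tags (MS) to 12625112 tags (SM), with 17918986 in input. Counts were summed into windows of 100 kb and 10 kb on chromosomes 1 to 20 and expressed per 1000000 tags of the library, here called normalised tags. Of 25572 windows of 100 kb, 24919 held the required 100 or more input tags, and of 255805 windows of 10 kb, 236950 held 10 or more. The median 100 kb window held 307 tags in SS against 441 in SM, and 205 in MS against 329 in MM, and the median 10 kb window 32, 45, 21 and 34. All intervals are exact conditional binomial 95% intervals. They cover counting error only, between 1 pooled library and another, and not the spread between animals. In tissue, fewer acetylated cells and less acetylation per cell cannot be told apart. The labelled tissue was not checked against marker genes, because genes could not be placed on the coordinates of these files.

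SM and SS differed in how their tags were spread over tag-rich and tag-poor stretches of the genome, and MM and MS showed no such gradient. Windows were ranked by their input tags, which take no part in either ratio, and divided into 5 equal classes. In the poorest 100 kb class (100 to 498 input tags) the mean window held 19.5 normalised tags in SS against 17.4 in SM, and 17.8 in MS against 17.9 in MM. In the richest class (909 to 3220 input tags) it held 62.8 in SS against 68.5 in SM, and 66.5 in MS against 66.5 in MM. SS was thus the highest ChIP library in the poorest class and the lowest in the richest, and SM was the reverse.

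The ratio SM/SS rose step by step over the classes, from 0.891 (0.889 to 0.894) through 0.902 (0.900 to 0.904), 0.965 (0.963 to 0.967) and 1.02 (1.020 to 1.024) to 1.09 (1.089 to 1.092). The ratio MM/MS stayed near 1 throughout, at 1.006 (1.002 to 1.009) in the poorest class, 1.002, 1.001 and 0.999 in the middle ones and 1.000 (0.998 to 1.001) in the richest. Scaled by 10 kb windows with few input tags instead of all tags, SM/SS ran from 0.988 to 1.21 and was 1.07 in the middle class, which turned to the higher side. The reference windows of this scaling are those with fewer input tags than the median 10 kb window. They come from the same stretches as the poor classes, so ratios near 1 in those classes follow from the scaling. The ratio in the richest class was 1.22 times that in the poorest for SM/SS and 0.994 times for MM/MS. In 10 kb windows the corresponding values were 1.24 and 1.01, so the width of the window made little difference to the gradient. The poorest 10 kb class had MM/MS at 0.996 (0.992 to 0.999), which is on the lower side of 1, as was SM/SS at 0.881. The richest 10 kb class had MM/MS at 1.002 (1.0002 to 1.004), on the higher side, as was SM/SS at 1.09. SM/SS was above 1 in 22.0% of the poorest and 84.1% of the richest 100 kb windows, and MM/MS in 51.7% and 49.9%. The steepness of each library tells where the gradient lies. From the poorest to the richest class, tags per 100 kb window rose 3.21-fold in SS against 3.93-fold in SM, and 3.73-fold in MS against 3.71-fold in MM, against 2.61-fold in input. MS and MM were almost equally steep, while SS was the flattest and SM the steepest ChIP library. With 1 library a group, a gradient from the challenge and a gradient from the preparation of the SS or SM library cannot be told apart.

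**Figure D1:**
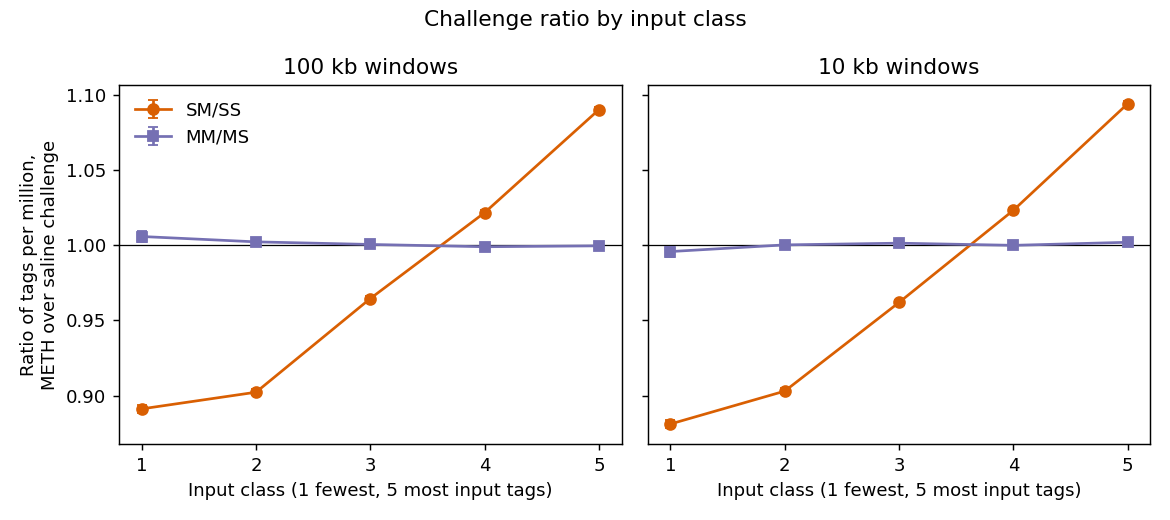
Ratio of normalised tags between METH and saline challenge (vertical axis) in the 5 classes of windows ranked by input tags (horizontal axis), for SM/SS and MM/MS, in 100 kb windows (left) and 10 kb windows (right). Points are ratios over all windows of a class and bars their 95% intervals for counting error, mostly smaller than the points. SM/SS climbs from 0.891 to 1.09 in 100 kb windows while MM/MS stays within 0.999 and 1.006.

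Over classes of H4K5Ac enrichment, SM/SS rose as it did over input classes, while MM/MS fell. For each pair, windows were ranked by the ratio of ChIP to input tags in the libraries of the other pair, so that no library both chose and tested a window. In 100 kb windows, SM/SS rose from 0.933 (0.931 to 0.936) in the least enriched class through 0.961, 1.01 and 1.02 to 1.03 (1.028 to 1.031) in the most enriched class. MM/MS went the other way, from 1.03 (1.031 to 1.038) through 1.02, 1.01 and 0.994 to 0.982 (0.980 to 0.984). Enriched windows also held more input tags, with a median of 894 in the most and 528 in the least enriched class of the SM/SS comparison. When each ratio was set against the median ratio of the window's input class, SM/SS no longer rose but stood at 1.01, 1.01, 1.02 and 1.00 in the first 4 classes and at 0.983 in the most enriched one. MM/MS still fell, from 1.03 through 1.01, 1.01 and 0.993 to 0.981.

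Scaled by all tags, the top 1 percent of the 10 kb ranking was lower after the METH challenge in each pair, over sets of 2372 windows ranked separately for each. SM/SS was 0.985 (0.980 to 0.991) in the windows ranked by MS and MM, and MM/MS was 0.962 (0.956 to 0.968) in those ranked by SS and SM. In the libraries that ranked them, the sets held 2.42 times (MS and MM) and 2.29 times (SS and SM) as many normalised ChIP tags as normalised input tags. The ranking itself makes these values high. The top 1 percent of 100 kb windows (250 windows) stood at 1.02 (1.010 to 1.022) in SM/SS and 0.976 (0.969 to 0.982) in MM/MS, so there the pairs parted. They also parted in the most enriched of the 5 classes of 10 kb windows, with SM/SS at 1.01 (1.010 to 1.013) and MM/MS at 0.976 (0.974 to 0.978). Set against the median ratio of the window's input class, the pairs did not part in either set, and both were lower. The top 1 percent of 100 kb windows was then at 0.956 in SM/SS and 0.976 in MM/MS. The most enriched class of 10 kb windows was at 0.984 and 0.974. Libraries scaled by 10 kb windows with few input tags raise every SM/SS ratio by 0.15 on the log2 scale and MM/MS by 0.0022, which turns SM/SS in the top 1 percent of 10 kb windows to the higher side, at 1.09. The step from class to class is the same under either scaling.

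Over single windows the pairs had little in common. SM/SS and MM/MS share no library. Across the 24919 windows of 100 kb their log2 ratios correlated with a Pearson r of 0.058 and a Spearman rho of 0.055, and 51.9% of windows lay on the same side of 1 in both pairs. The same values for 10 kb windows were an r of 0.022, a rho of 0.025 and 50.9%. These correlations describe windows, which are not replicates, and ratios of neighbouring windows move together. Within input classes r rose from 0.068 in the poorest to 0.14 in the richest 100 kb class. The log2 ratios spread more widely than counting error gives. Their SD over 100 kb windows was 0.21 in SM/SS, where counting gives 0.12, and 0.18 in MM/MS, where it gives 0.14. Over 10 kb windows it was 0.47 in SM/SS, where counting gives 0.38, and 0.55 in MM/MS, where it gives 0.47. Counting error is thus a large part of the spread, most of all at 10 kb, and lowers r.

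**Figure D2:**
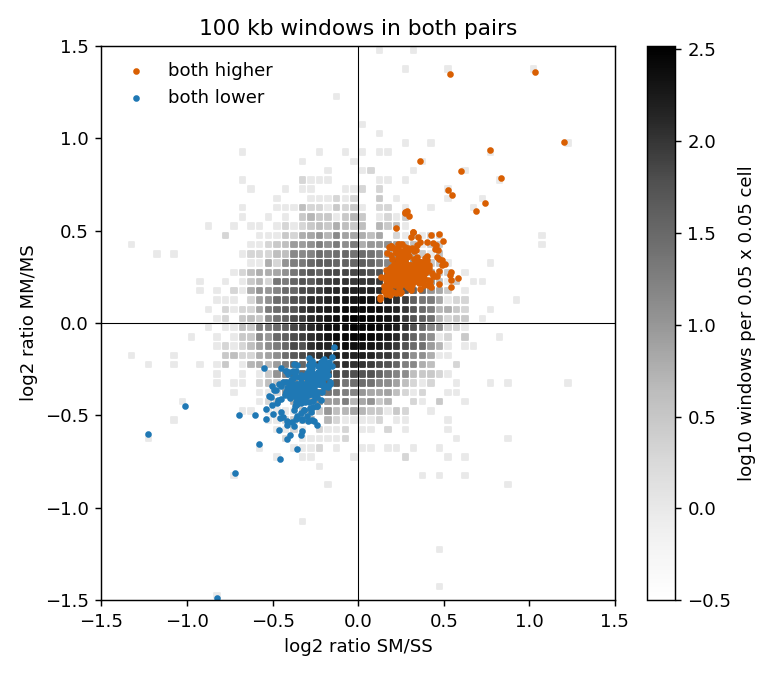
Each 100 kb window by its log2 ratio SM/SS (horizontal axis) and MM/MS (vertical axis). Grey shades give the number of windows per cell on a log10 scale, and coloured points are the windows in which both intervals exclude 1 on the same side, 302 higher and 250 lower, less those beyond the axes. The cloud has no visible tilt, with a Pearson r of 0.058.

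A window was counted as moving alike when the intervals of both pairs excluded 1 on the same side. Each pair was first counted whatever the other pair did, so these counts include the windows that moved alike or in opposite directions. In 100 kb windows SM/SS was higher in 3280 (13.2% of those tested) and lower in 3901 (15.7%). MM/MS was higher in 1485 (5.96%) and lower in 1372 (5.51%). Windows that moved alike numbered 302 higher (1.21%) and 250 lower (1.00%). Another 300 windows (1.20%) had both intervals past 1 in opposite directions. The windows that moved alike were small changes: the median ratio of the higher ones was 1.21 in both SM/SS and MM/MS, and that of the lower ones 0.811 in SM/SS and 0.789 in MM/MS. At a width of 10 kb, counted in the same way, SM/SS was higher in 11389 windows (4.81%) and lower in 12463 (5.26%). MM/MS was higher in 9424 (3.98%) and lower in 9021 (3.81%). There 545 were higher in both pairs (0.230%), 491 lower (0.207%) and 779 opposite (0.329%). The interval rule can reach only large ratios at that width, and the median ratios were 1.67 and 1.82 for the higher and 0.552 and 0.495 for the lower windows.

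The split into higher and lower depended on the scaling. Scaled by 10 kb windows with few input tags, 633 windows of 100 kb were higher and 46 lower, so that the share of higher ones went from 54.7% to 93.2%. Windows with both intervals past 1 in opposite directions then numbered 488, where scaling by all tags gave 300. Among 10 kb windows it went from 52.6% to 84.1%. Requiring also a ratio 25% or more above 1, or the inverse of such a ratio, left 39 higher and 85 lower 100 kb windows, a share of 31.5%, and with a 99% interval it was 65.3%.

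The same 4 libraries give the pretreatment comparison, MS/SS and MM/SM. There 141 windows of 100 kb moved alike (0.566%) and 400 (1.61%) in opposite directions, compared with 552 alike (2.22%) and 300 opposite for the challenge. In 10 kb windows 665 moved alike (0.281%) and 808 opposite (0.341%) for pretreatment, and 1036 (0.437%) and 779 for the challenge. The pretreatment ratios have SS and SM below the line, the flattest and the steepest ChIP library over the input classes. In the richest 100 kb class the mean window held 62.8 normalised tags in SS and 68.5 in SM, against 66.5 in both MS and MM. MS/SS thus lay above 1 there and MM/SM below. Pretreatment ratios were not set against the class median, and the difference between these counts was not tested.

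Input class and direction went together. Of the 302 higher 100 kb windows, 180 were in the richest class (3.61% of that class) and 18 in the poorest (0.361%), where the share over all windows was 1.21%. Of the 250 lower ones, 3 were in the richest class (0.0602%), and 74 in the poorest (1.48%) and 80 in the next (1.61%), against 1.00% over all windows. The median higher window held 951 input tags and the median lower window 566, where the median of all tested windows was 693. Enrichment differed less, with a median ChIP to input ratio of 0.918 in the higher, 0.952 in the lower and 0.910 in all tested windows. SM/SS by itself lay above 1 in most rich and below 1 in most poor windows, as given above.

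When each ratio was instead set against the median ratio of the window's input class, 223 windows of 100 kb (0.895%) were higher in both pairs and 156 (0.626%) lower, with 189 opposite (0.758%). Of these, 163 higher and 80 lower windows had also moved alike against 1. The crowding of higher windows in the richest class was then mostly gone, with 39 of them in the poorest class (0.783%) and 59 in the richest (1.18%). The lower ones turned over, with 10 in the poorest class (0.201%) and 53 in the richest (1.06%). The classes differ in depth. The median window held 174 tags in SS and 105 in MS in the poorest class, against 530 and 377 in the richest. Intervals are narrower with more tags, so the same ratio is called more readily in the richest class, and these shares are not at equal depth. In 10 kb windows, set against the class median, 473 were higher (0.200%), 418 lower (0.176%) and 679 opposite (0.287%).

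**Figure D3:**
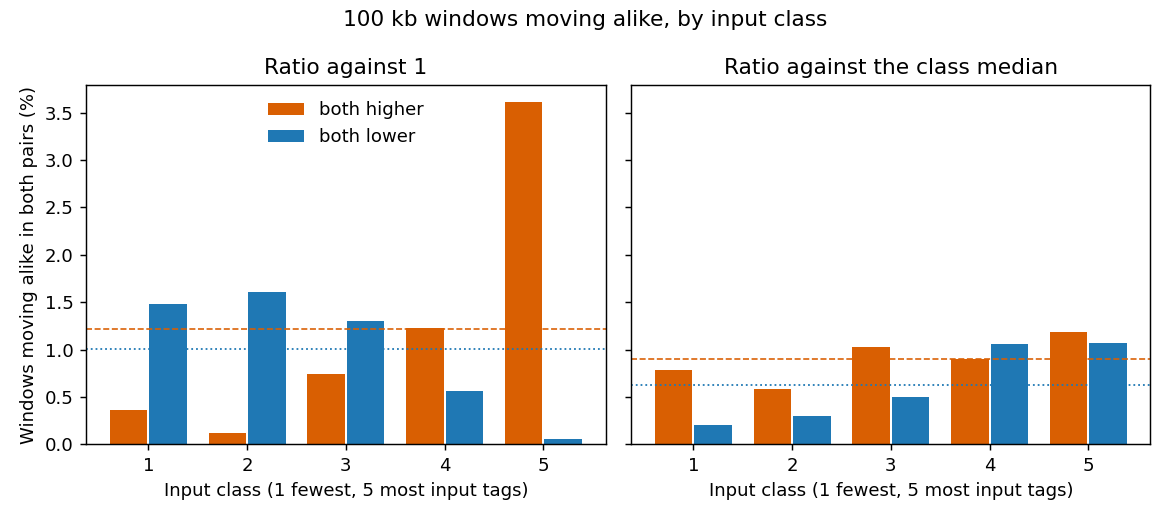
Percent of the 100 kb windows of each input class (horizontal axis) that moved alike in both pairs, higher in orange and lower in blue, with ratios set against 1 (left) or against the class median (right). The dashed and dotted lines are the shares over all tested windows, 1.21% and 1.00% on the left and 0.895% and 0.626% on the right. On the left the richest class reaches 3.61% higher, and on the right 1.18%.

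Both libraries of a side were then fitted together with edgeR's quasi-likelihood test, with pretreatment as a block. The fit has 1 residual degree of freedom, which is the difference between the pairs, so that a change in 1 pair counts partly as effect and partly as error. In 100 kb windows it called 9 at a Benjamini-Hochberg adjusted p under 0.05 (0.0361%), of which 4 were higher (0.0161%) and 5 lower (0.0201%) after the METH challenge. DESeq2 called 0, with 37 of the 24919 windows at an unadjusted p under 0.05, where edgeR had 1706. The 37 are far fewer than the threshold of 0.05 alone would give over so many windows, and the 1706 are nearer to it. The 0 calls of DESeq2 therefore do not show that no window changed. With library totals adjusted by TMM factors, a trimmed mean of log ratios between libraries, edgeR called 6, of which 3 were higher and 3 lower, and the 3 windows that lost the call were those called on chromosomes 17 and 19. Only 3 of the 9 moved alike by the interval rule, 5 had an interval that excluded 1 in SM/SS alone, and 1 in MM/MS alone. In 10 kb windows edgeR called 2 windows, both higher (0.000844%), of which 0 moved alike, and DESeq2 called 0. Of the 236950 windows of 10 kb, 83 had an unadjusted p under 0.05 in DESeq2 and 12509 in edgeR, so the same limit holds there.

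The 3 called 100 kb windows that moved alike were all higher after METH. On chromosome 1 from 75300001 to 75400000 there were 12 tags in SS against 114 in SM, and 7 in MS against 80 in MM, that is 1.38, 9.03, 1.19 and 8.59 normalised tags. Both METH-challenged libraries were thus far above both saline-challenged ones, with ratios of 6.53 (3.60 to 13.0) and 7.19 (3.33 to 18.5), a fitted log2 difference of 2.75 and an edgeR adjusted p of 1.83e-08. On chromosome 1 from 75500001 to 75600000 there were 67, 226, 44 and 139 tags, or 7.72, 17.9, 7.51 and 14.9 normalised tags, with ratios of 2.32 (1.76 to 3.09) and 1.99 (1.41 to 2.86) and an edgeR adjusted p of 0.00691. On chromosome 19 from 47100001 to 47200000, in the richest input class, there were 355, 709, 215 and 458 tags, or 40.9, 56.2, 36.7 and 49.2 normalised tags, with ratios of 1.37 (1.21 to 1.56) and 1.34 (1.14 to 1.58) and an edgeR adjusted p of 0.0497, which was 0.0578 with TMM factors. In all 3 windows both METH-challenged libraries lay above both saline-challenged ones, which describes the values that chose them.

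The other 6 calls rested on 1 library or 1 pair. On chromosome 1 from 215500001 to 215600000, the window with most input tags of all (3220), normalised tags were 88.5 in SS against 84.5 in SM, and 36.2 in MS against 104 in MM, so MS stood apart from the other 3. The lower calls were high in SS. On chromosome 17 from 49500001 to 49600000, normalised tags were 118 in SS against 67.3 in SM, and 82.6 in MS against 76.4 in MM, and from 49300001 to 49400000 they were 71.8, 40.2, 44.0 and 45.0. On chromosome 13 from 19200001 to 19300000 they were 67.4, 40.6, 50.0 and 44.1, and on chromosome 6 from 139400001 to 139500000 they were 48.5, 25.1, 27.8 and 23.6. In these 4 windows SS lay above the other 3 libraries, and in none of them did the MM/MS interval exclude 1. On chromosome 1 from 61500001 to 61600000 SM was the library apart, with 3.09 normalised tags against 14.2 in SS, 10.2 in MS and 9.13 in MM. The called 10 kb windows had the same form. On chromosome 17 from 4280001 to 4290000 there were 252 tags in SM against 31 in SS, 25 in MS and 34 in MM, and on chromosome 1 from 215570001 to 215580000 there were 37 in MS against 208 in SS, 311 in SM and 286 in MM.

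The 100 kb windows that moved alike most strongly were taken as the 5 higher and the 5 lower with the largest smaller log2 ratio of the pairs. All 10 lay in the poorest input class, where few tags make large ratios possible, and 2 of them are the called chromosome 1 windows above. Among the other higher windows, that on chromosome 20 from 37900001 to 38000000 had 42 tags in SS against 126 in SM, and 20 in MS against 83 in MM, with ratios of 2.06 (1.44 to 3.00) and 2.61 (1.59 to 4.49). A pair of windows lay close together on chromosome 15. From 5800001 to 5900000 there were 41, 107, 22 and 61 tags, with ratios of 1.79 (1.24 to 2.64) and 1.75 (1.06 to 2.98), and from 5500001 to 5600000 there were 53, 132, 23 and 71, with ratios of 1.71 (1.24 to 2.40) and 1.94 (1.20 to 3.26). In each of these 5 windows both METH-challenged libraries lay above both saline-challenged ones, and since the windows were ranked by these same values this is no more than a description of them. The edgeR adjusted p was 0.087 on chromosome 20 and 0.497 and 0.424 on chromosome 15.

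The lowest of the lower windows was on chromosome 6 from 139700001 to 139800000, with 101 tags in SS against 83 in SM, and 41 in MS against 23 in MM, or 11.6, 6.57, 7.00 and 2.47 normalised tags. Its ratios were 0.565 (0.417 to 0.763) and 0.353 (0.202 to 0.602). On chromosome 17 from 72200001 to 72300000 the counts were 59, 52, 31 and 28, with ratios of 0.606 (0.409 to 0.895) and 0.568 (0.329 to 0.980). On chromosome 1 from 61900001 to 62000000 they were 92, 57, 84 and 88, with ratios of 0.426 (0.301 to 0.599) and 0.659 (0.483 to 0.900). In this last window MM, at 9.45 normalised tags, lay just below SS at 10.6. On chromosome 15 from 97400001 to 97500000 the counts were 153, 149, 96 and 97 (ratios 0.669 and 0.636), and on chromosome 5 from 20100001 to 20200000 they were 123, 123, 74 and 82 (0.687 and 0.697). In the chromosome 5 window all 10 pieces of 10 kb were lower in both pairs, in the chromosome 15 window 9 of 10, and in the other 3 lower windows 6 or 7 of 10, with the same tags by which the windows were chosen. A piece without tags counts as lower in both pairs here. The pseudocount of 0.5 tags is divided by library totals, and SM and MM are the larger library of each pair. Both METH-challenged libraries lay below both saline-challenged ones in all 5 lower windows, again in the values that ranked them. Set against the median of their input class, the windows on chromosomes 17 and 5 no longer moved alike. With a 99% interval these 2 and the chromosome 15 window at 5800001 lost the call, and after thinning every library to the smallest so did both chromosome 15 windows at 5500001 and 5800001, the chromosome 17 window (0.760) and the chromosome 1 window at 61900001 (0.752). The edgeR adjusted p of these 5 windows ranged from 0.201 to 0.62.

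**Figure D4:**
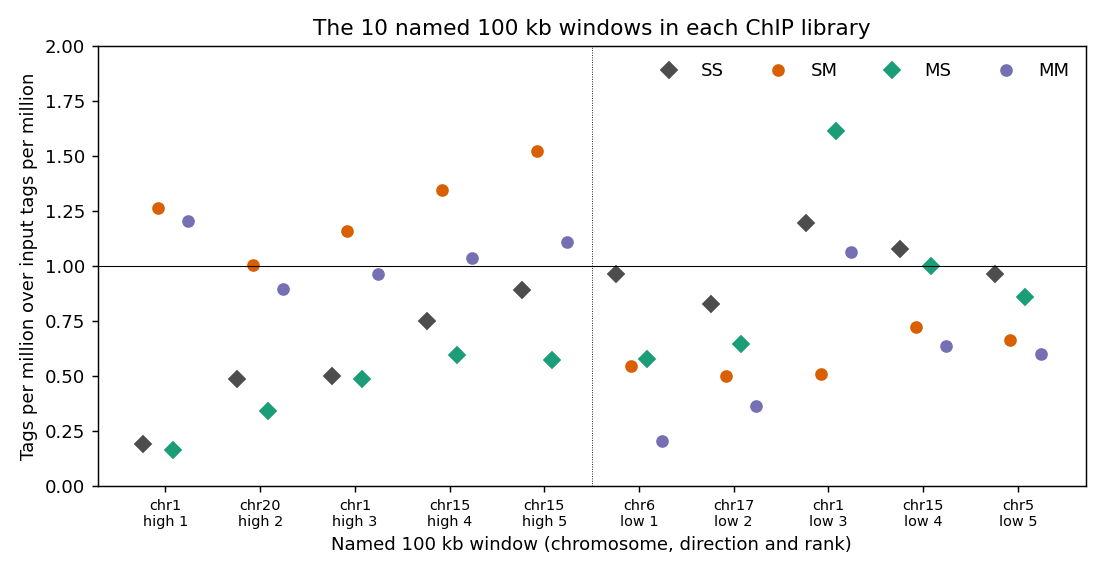
Normalised tags relative to normalised input tags (vertical axis) in the 4 ChIP libraries, for the 5 higher and 5 lower 100 kb windows named in the text, in order of rank. Circles are METH-challenged and diamonds saline-challenged libraries, and each point is 1 library without replicate. In the first window SM and MM stand at 1.26 and 1.20 and SS and MS at 0.194 and 0.167.

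Relative to input, the saline-challenged libraries were far below 1 in the first chromosome 1 window and the METH-challenged ones above it. SM stood at 1.26 and MM at 1.20, while SS stood at 0.194 and MS at 0.167. The mean of the ChIP libraries had quartiles of 0.783 and 1.11 over all tested 100 kb windows. Such a mean spreads less than a single library does in a window of few tags. The second of the called chromosome 1 windows that moved alike, from 75500001 to 75600000, had 1.16 in SM and 0.966 in MM against 0.499 in SS and 0.486 in MS. The difference spread over 7 of the 10 pieces of 10 kb of the first window, which were higher in both pairs. These are the same tags by which the window was chosen. Its first 20 kb held 0 tags in every library, input included, and no 1 kb held more than 13 tags of a library. The surroundings of this window moved as well. From 75400001 to 75500000 the ratios were 2.17 (1.38 to 3.51) and 1.36 (0.771 to 2.48), so that only SM/SS was past counting error, and SM had 6.49 normalised tags against 7.37 in input, with MM further below input. From 75500001 to 75800000, 3 successive windows were higher in both pairs, with 262 tags in SS against 634 in SM, and 151 in MS against 434 in MM, and on the other side so were those starting at 74900001 and 75100001. From 75800001 to 75900000 the ratios were 1.02 (0.808 to 1.28) and 1.15 (0.859 to 1.55), and there the difference was no longer past counting error. The window from 75200001 to 75300000 held 0 tags in every library, input included. The input was 1 library for all groups, so different DNA content of the pooled animals at this place and different H4K5Ac cannot be told apart.

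**Figure D5:**
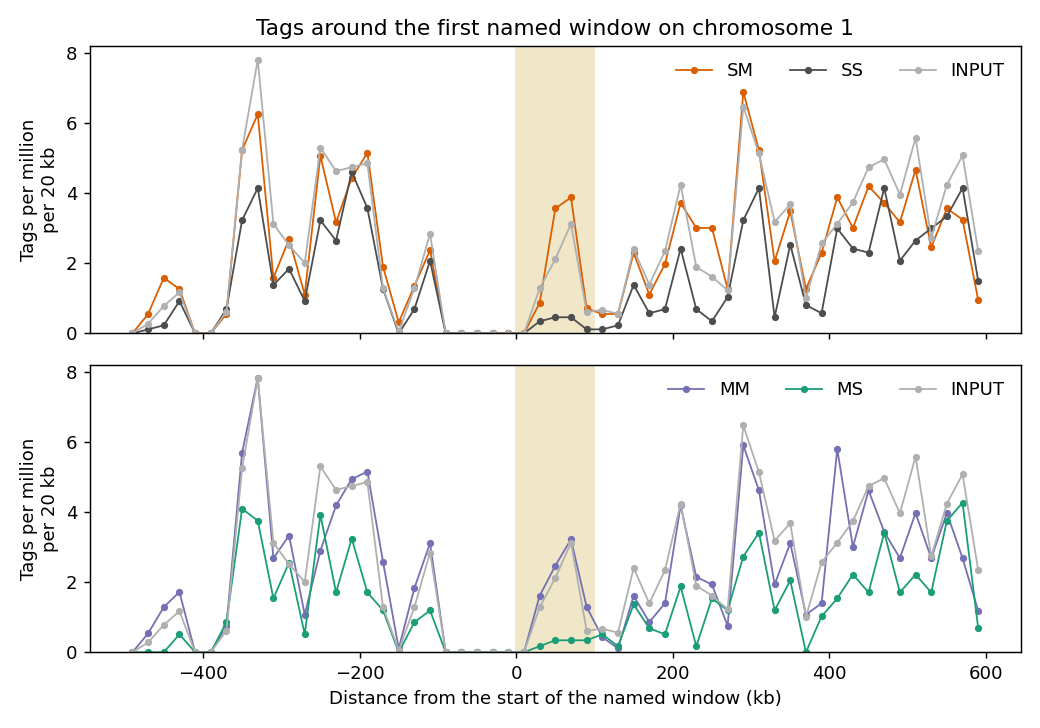
Normalised tags in successive 20 kb stretches (vertical axis) against distance from the start of the first named chromosome 1 window (horizontal axis, kb), for SM, SS and input (top) and MM, MS and input (bottom). The shaded band is the named 100 kb window. In the band as a whole SM and MM stand at 1.26 and 1.20 times input and SS and MS at 0.194 and 0.167 times, and from 100 to 200 kb MM falls below input too.

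The strongest 10 kb windows rested on few tags. On chromosome 15 from 5890001 to 5900000 SS and MS held 0 tags, SM 11 and MM 8, which against a floor of 3 tags per library is at least 2.52-fold and 1.68-fold higher, and the 95% intervals reach down to 1.73 and 1.07. The chromosome 1 stretch from 75340001 to 75380000 held 4 successive windows that were higher in both pairs, the longest such run, with 8 tags in SS against 94 in SM, and 4 in MS against 53 in MM. Of these, the window starting at 75360001 had 1, 27, 2 and 20 tags, with ratios of 18.6 (3.06 to 760) and 6.29 (1.53 to 55.5). On chromosome 7 from 42740001 to 42750000 there were 2, 17, 2 and 20 tags, with ratios of 5.84 (1.39 to 52.1) and 6.29 (1.53 to 55.5). With a 99% interval the chromosome 15 window and the chromosome 1 windows starting at 75350001 and 75370001 no longer moved alike. After thinning every library to the smallest these and the chromosome 7 window lost the call.

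The lower 10 kb windows also rested on few tags. On chromosome 10 from 80650001 to 80660000 there were 10 tags in SS against 2 in SM, and 10 in MS against 2 in MM, with ratios of 0.137 (0.0146 to 0.645) and 0.126 (0.0134 to 0.591). On chromosome 5 from 54240001 to 54250000 there were 5, 0, 7 and 1 tags, which against a floor of 3 tags makes SM at least 2.42-fold lower, with an interval for SM/SS that reaches up to 0.750. MM/MS there was 0.0899 (0.00200 to 0.700). The remaining lower windows, on chromosome 2 from 65600001 to 65610000, chromosome 8 from 87410001 to 87420000 and chromosome 1 from 108990001 to 109000000, held 10 to 17 tags in SS and 3 to 6 in SM, and 6 to 8 in MS and 1 to 2 in MM. The upper bounds of the intervals in these 5 windows were 0.591 to 0.865, and edgeR's adjusted p was 0.125 for the window at 75360001 and 0.772 or more for the 9 others. With a 99% interval the lower windows on chromosomes 1, 2, 5 and 8 no longer moved alike, nor did those on chromosomes 2 and 5 after thinning.

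The 2 widths count the same tags, and their changes overlapped in part. Of the 545 higher 10 kb windows, 81 (14.9%) lay in a 100 kb window that was higher in both pairs, where 1.22% of all tested 10 kb windows did. Of the 302 higher 100 kb windows, 72 (23.8%) held a higher 10 kb window, where 2.13% of all tested ones did. Of the 491 lower ones, 41 (8.35%) lay in a lower 100 kb window (1.01% of all), and 37 of those 250 (14.8%) held one (1.94% of all). Next to the higher 100 kb windows, 534 neighbouring windows that had not moved alike were higher in both pairs in 47.2% of cases, compared with 23.4% of all tested windows and 42.8% of those in the richest input class. Next to the lower ones, 470 neighbours were lower in both pairs in 44.7%, compared with 28.5% of all, 38.5% of the poorest class and 40.0% of the next. The neighbours moved mainly in SM/SS, with a median log2 ratio of 0.15 beside higher and -0.16 beside lower windows, and little in MM/MS, with 0.03 and -0.02. Set against the class median, the SM/SS values were 0.08 and -0.06. Successive windows were correlated in the same uneven way, with an r of 0.51 for SM/SS and 0.089 for MM/MS over 24528 neighbouring pairs of 100 kb. Set against the class median, r was 0.23 for SM/SS and again 0.089 for MM/MS. Among the higher 100 kb windows 38 lay in 18 runs of 2 or 3, and among the lower ones 13 in 6 runs.

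The longest runs other than that on chromosome 1 at 75500001 had 3 windows each. On chromosome 1 from 205300001 to 205600000 there were 1346 tags in SS against 2341 in SM, and 930 in MS against 1740 in MM, with ratios of 1.20 and 1.18. On chromosome 17 from 72200001 to 72500000 there were 602, 540, 309 and 365 tags, with ratios of 0.617 and 0.743. Both runs were thus wider than a single window, the first a small rise on many tags and the second a larger fall on fewer.

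Scaled by all tags, whole chromosomes showed a gradient in SM/SS and little in MM/MS. SM/SS ranged from 0.956 on chromosome 2 to 1.09 on chromosome 12, and MM/MS from 0.988 on chromosome 11 to 1.01 on chromosome 15. Over the 20 chromosomes SM/SS followed the median input tags of their windows with a Spearman rho of 0.88, and MM/MS with a rho of 0.31, both given as a description of libraries that share their preparation over all chromosomes. On 12 of the 20 chromosomes the pairs lay on the same side of 1, with 7 above in both and 5 below. Both intervals excluded 1 upward on chromosomes 1, 3 and 19 and downward on chromosomes 2 and 11. Chromosome 19 had the largest rise shared by both pairs, with SM/SS at 1.05 (1.044 to 1.055) and MM/MS at 1.01 (1.008 to 1.021), and 20 of its 579 windows were higher in both (3.45%, against 1.21% over all). That share was 3.61% in the richest input class and 1.22% in the next, in which the chromosome's median of 821 input tags lies. Chromosomes were not compared within input classes. Chromosome 2 was at 0.956 (0.953 to 0.959) and 0.990 (0.986 to 0.993), and 40 of its 2508 windows were lower in both (1.59%, against 1.00%). Its median of 603 input tags lies in the input class next to the poorest, where 1.61% were lower in both. Chromosome 15 was the only one with both intervals past 1 in opposite directions, at 0.985 (0.980 to 0.989) and 1.01 (1.009 to 1.020). Scaled by 10 kb windows with few input tags, SM/SS was above 1 on all 20 chromosomes, with chromosome 2 at 1.06 and chromosome 15 at 1.09. That scaling raises every SM/SS ratio by the same 0.15 on the log2 scale. Chromosomes 2 and 11 then had their intervals past 1 in opposite directions and chromosome 15 was upward in both pairs, while those on chromosomes 1, 3 and 19 were still upward in both pairs.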

How the data were processed

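The 4 ChIP libraries (SS, SM, MS and MM) and the input library each came from pooled striatal tissue. Reads were cut to 41 bases and aligned by the authors with Gerald, to the build rn4 according to the submitters' processing notes. The sources used here do not give the version of the aligner or the handling of repeated tags. Per the deposited files, values are counts of tags in the 1 kb window around every 100 bp step, neither normalized nor corrected for input. The steps that give non-overlapping 1 kb counts were kept, summed to 100 kb and 10 kb windows on chromosomes 1 to 20 and divided by all tags of the library.

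Windows needed 100 (100 kb) or 10 (10 kb) input tags. Log2 ratios used a pseudocount of 0.5 tags. Ratios have exact conditional binomial 95% intervals, which cover counting error only. The fit over both pairs used edgeR 4.0.16, with library totals, pretreatment as a block and Benjamini-Hochberg adjustment over all windows of a width, and DESeq2 1.42.0 as an alternative. The interval rule and the edgeR fit, but not DESeq2, were tested on simulated data with 200 changed windows. Named windows are the 5 higher and 5 lower with the largest smaller log2 ratio among those that moved alike, at each width, leaving out those with more than 3 times the median input. The windows called by edgeR and the longest runs were named after their values were seen. The comparison, classes and rules were chosen with earlier results of these data known. Alternatives were other scalings, no filter, thinned libraries, 99% intervals, a minimum ratio, 10 classes, shifted windows, windows without 1 kb counts of excess input and, added after the data were seen, 1 Mb windows and each library left out. The gene table at hand is of another assembly, so windows were not assigned to genes and no sequence was printed. Python 3.11.15, NumPy 2.4.6, SciPy 1.17.1, pandas 2.3.3, matplotlib 3.10.9 and R 4.3.3 were used.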

Additional observations from a re-analysis of the deposited data

Results flagged for a closer look

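Scaled by all tags, SM/SS and MM/MS lay on opposite sides of 1 in 17 of the class and chromosome comparisons, which are all 5 input classes and 4 enrichment classes of 100 kb windows and 8 chromosomes. The difference itself was not tested, because each pair has 1 library per group. Both intervals excluded 1 only in the poorest input class, in the 4 enrichment classes and on chromosome 15, and elsewhere at least 1 pair lay within counting error of 1. For the poorest input class this held in 100 kb windows only. In 10 kb windows both pairs were below 1 there, with SM/SS at 0.881 and MM/MS at 0.996 (0.992 to 0.999). In the richest class of 10 kb windows both pairs were above 1, with SM/SS at 1.09 and MM/MS at 1.002 (1.0002 to 1.004). From the poorest to the richest input class, SM/SS was 0.886, 0.900, 0.964, 1.02 and 1.09 times MM/MS. From the least to the most enriched class, leaving out the middle one, it was 0.902, 0.944, 1.03 and 1.05 times MM/MS. Set against the median ratio of the input class, the least enriched class was higher in both pairs, at 1.01 and 1.03. The most enriched class was then lower in both, at 0.983 in SM/SS and 0.981 in MM/MS. SM/SS was 1.01 times MM/MS on chromosome 5, 1.02 times on chromosome 7, 1.01 times on chromosome 8, 1.005 times on chromosome 9 and 1.05 times on chromosome 10. It was 0.971 times MM/MS on chromosome 13, 0.985 times on chromosome 14 and 0.970 times on chromosome 15. Scaled by 10 kb windows with few input tags, 7 of the 17 stayed on opposite sides, which were 1 input class (the poorest, at 0.981 times), 2 enrichment classes (the most enriched at 1.16 times) and 4 chromosomes. In the richest input class, the least enriched class and on chromosome 15 both pairs were then above 1, with SM/SS at 1.21, 0.999 and 1.07 times MM/MS.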

How the results depend on the processing

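In the richest 100 kb input class SM/SS kept its direction, at 1.087 scaled by the tags of chromosomes 1 to 20 and 1.11 in the richest of 10 classes. Scaled by 10 kb windows with few input tags it was 1.21. That last scaling turned the middle class from 0.965 to 1.07, and took the class next to the poorest from 0.902 to 1.00 (0.998 to 1.003). Its reference windows come from the same stretches with few input tags as the poor classes, so a ratio near 1 there follows from the scaling. SM/SS in the most enriched class was 1.027 scaled by the tags of chromosomes 1 to 20, 1.14 scaled by few-input windows and 1.032 with 10 classes. MM/MS with 10 classes was 0.980. Counts of windows moving alike changed as follows. In 100 kb windows there were 323 after thinning every library to the smallest, 118 with a 99% interval and 124 with a ratio 25% or more above 1, or the inverse, as well, and in 10 kb windows 608 after thinning and 112 with a 99% interval. Windows in opposite directions numbered 207, 41 and 88 in these 100 kb settings, and 469 and 73 in these 10 kb settings. Of 2550 windows of 1 Mb 183 moved alike (7.18%) and 156 in opposite directions, where 100 kb windows gave 552 and 300. Set against the class median, 52.7% of 100 kb windows lay on the same side in both pairs, and after thinning 50.1% of 10 kb windows did. On chromosomes, 13 of 20 lay on the same side under both other scalings, but scaled by few-input windows SM/SS was above 1 on all 20 and 0 were below 1 in both pairs. All 20 named windows kept their direction under the settings run on them. These were the other scalings, thinning, 1 kb counts of excess input left out and a 99% interval. The windows were chosen as extreme in these same counts, so their kept direction is no independent check. Of the 20, 10 no longer moved alike after thinning and 10 with a 99% interval. Shifted windows were not run on them. The number of edgeR calls changed with the fit. With TMM factors edgeR called 6 windows of 100 kb and 2 of 10 kb, and without the filter on input tags 10 and 2. Without the replicate block, which here is pretreatment, edgeR called 19 windows of 100 kb and 1 of 10 kb, and DESeq2 called 0 at both widths. With 1 library left out and no replicate block the 100 kb calls ranged from 4 (without SM) to 328 (without MS), with 29 without MM and 7 without SS, and the 10 kb calls from 1 to 28, with 11 without SS. In these fits the lone library of a side is assumed to vary like the others. The cause of these changes was not tested. Depth limits what a window can show: the median 10 kb window of MS held 21 tags.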

Other observations

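Chromosome X, which was outside the compared windows, was lower after the METH challenge in both pairs. It held 201911 tags in SS against 262908 in SM, and 128584 in MS against 200552 in MM, and relative to all tags of the library the ratio was 0.895 (0.890 to 0.900) for SM/SS and 0.982 (0.975 to 0.989) for MM/MS. Scaled by 10 kb windows with few input tags it was 0.992 (0.987 to 0.998) for SM/SS and 0.983 (0.976 to 0.990) for MM/MS, so most of the difference in SM/SS depended on the scaling. Scaled by all tags, the SM/SS ratio was near the 0.891 of the poorest 100 kb input class, where MM/MS was 1.006. Chromosome X was not ranked into input classes, so it was not compared with windows of like input. The chromosome X ratios compare 1 pooled library with another and have no replicate check.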
